A study of Arabidopsis thaliana with 14 samples.

Results

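Rosette leaves of the Arabidopsis line ft-10, which carries a lesion in the flowering gene FT, were compared 24 h after injection of a silk microneedle that held no cargo and without any injection. The comparison uses 6 of the 14 libraries of the series, chosen by their labels: 3 of leaves that received no needle and were taken at 0 h, called untreated, and 3 of leaves that received an empty needle and were taken at 24 h. All plants were 30 days old, carried the ft-10 allele and grew in soil at 22 °C with 16 h of light and 8 h of dark. The needles were taken out before the leaves were frozen, total RNA was extracted, and the submitters describe the replicates as biological ones. The series has no untreated leaves at 24 h, so the injection, the silk and 24 h of time cannot be told apart. Leaves with needles that carried the gibberellin GA3 at 15 mM, also taken at 24 h (n = 3), are described beside some genes by their levels alone, since they would be compared with the same untreated libraries.

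A leaf that is pierced has to close the wound. Cells around dead tissue can strengthen their walls with lignin, a phenolic polymer made from phenylalanine by the phenylpropanoid pathway and joined in the wall by peroxidases and laccases, and jasmonate is the main hormone of wounded leaves. Plants of the cabbage family also make glucosinolates, defence compounds that contain sulfur, and they draw on the pathway that reduces sulfate to cysteine.

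Each library held 19458893 to 23928793 reads in genes, 92.3% to 95.4% of its total. Levels are given as CPM (counts scaled to library size by TMM factors) in libraries 1, 2 and 3 of a group, fold changes as fitted log2 values of empty needle against untreated ± SE (n = 3 against 3), and adjusted p-values from the quasi-likelihood test of edgeR, adjusted by Benjamini-Hochberg over the 20077 genes tested. The FT gene itself (AT1G65480, chromosome 1 of TAIR10.1, 24331373 to 24333999) had 4.65, 4.35 and 3.39 CPM in untreated leaves and 15.8, 30.4 and 56.3 CPM with the empty needle. All 6 libraries thus held reads of FT. A gene's count leaves unknown where on the transcript its reads lay, so these levels check neither the lesion nor a working product.

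The libraries of the untreated group did not stand equally close. The root mean square log2 difference over genes was 0.955 and 0.967 between untreated library 1 and the other two, 0.572 between untreated libraries 2 and 3, and 0.684 to 0.751 among the 3 empty needle libraries. Between the groups it ranged from 0.848 to 1.04, so that untreated library 1 lay about as far from its own group as from the empty needle libraries. It was the highest of the 3 untreated libraries in 18 of the 20 genes of the salicylic acid list, with the regulator WRKY70 at 216 CPM against 14.6 and 21.2. It was also the lowest of the 3 in 23 of 36 jasmonate genes, 18 of 18 aliphatic glucosinolate genes and 41 of 45 photosynthesis genes. Over all 20077 genes tested, it was the highest of the 3 in 8205 and the lowest in 8202. The defensin PDF1.2, an output of jasmonate and ethylene, stood at 20.4 CPM there against 8325 and 9496 CPM in untreated libraries 2 and 3. Results are therefore given with and without single libraries where a call or a value rests on them.

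In all, 122 genes passed the adjusted threshold of 0.05 as higher with the empty needle (0.608% of genes tested) and 34 as lower (0.169%). The libraries of the groups did not overlap in 2576 genes with the empty needle higher (12.8%) and 2419 with it lower (12%), and the median log2 fold change over all genes was 0.00. At an unadjusted p under 0.05, edgeR counted 1858 genes higher and 1396 lower among the 20077 tested. Counts of the same kind for a gene list have to be read beside these. Of the 122 genes, 109 were over 2-fold higher, 64 over 4-fold and 25 over 16-fold, and 32 had an untreated mean under 1 CPM. Of the 34 lower genes, 19 were over 2-fold lower and 4 over 4-fold. With total counts in place of TMM as library size, 100 genes were called higher and 11 lower.

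The number of calls depended on which libraries were in the fit. Without untreated library 1, 179 genes were called higher and 54 lower, and 89 of the 156 genes were still called. Without untreated library 2 the counts were 4 and 0 (1558 and 1217 at an unadjusted p under 0.05), and without untreated library 3 they were 11 and 1. Leaving out empty needle library 1, 2 or 3 gave 65 and 6, 69 and 11, and 51 and 3. The highest adjusted p-value of a gene that lost its call was 0.217 across these fits.

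Only 4 of the 156 genes were called without each of the 6 libraries in turn, PRX52, PSK5, AT5G36907 and AT4G02630. PRX52 (AT5G05340, chromosome 5, 1578869 to 1580875, minus strand) encodes a secreted class III peroxidase that works in lignin formation. Its level was 1.86, 0.799 and 1.43 CPM in untreated leaves and 58.8, 95.6 and 179 CPM with the empty needle. Every empty needle library was far above every untreated one, and the log2 fold change was 6.35 ± 0.66 (adjusted p = 0.00367, at most 0.0408 with a library left out). In leaves with the GA3 needle PRX52 stood at 25.7 ± 7.56 CPM (SD, n = 3).

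PSK5 (AT5G65870, chromosome 5, 26351373 to 26352703, plus strand) encodes a precursor of phytosulfokine, a small secreted peptide hormone. Its level went from 6.15, 7.01 and 8.22 CPM to 28.1, 34.7 and 36.1 CPM, with little spread in either group, and the GA3 needle leaves held 34.2, 32.8 and 29.8 CPM. The log2 fold change was 2.21 ± 0.16 (adjusted p = 0.000197, at most 0.00441 with a library left out). AT5G36907, an uncharacterized protein, rose from 0.133, 0.311 and 0.159 CPM to 3.33, 4.57 and 8.73 CPM (log2 fold change 4.74 ± 0.47, adjusted p = 0.00318, at most 0.0353). AT4G02630, annotated as a protein kinase, rose from 10.2, 13.2 and 11.1 CPM to 46.7, 40.2 and 33.4 CPM (1.80 ± 0.21, adjusted p = 0.00466, at most 0.0447). PSK5 and AT4G02630 are named because they kept their call, so they were chosen after their values were seen.

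**Figure D1:**
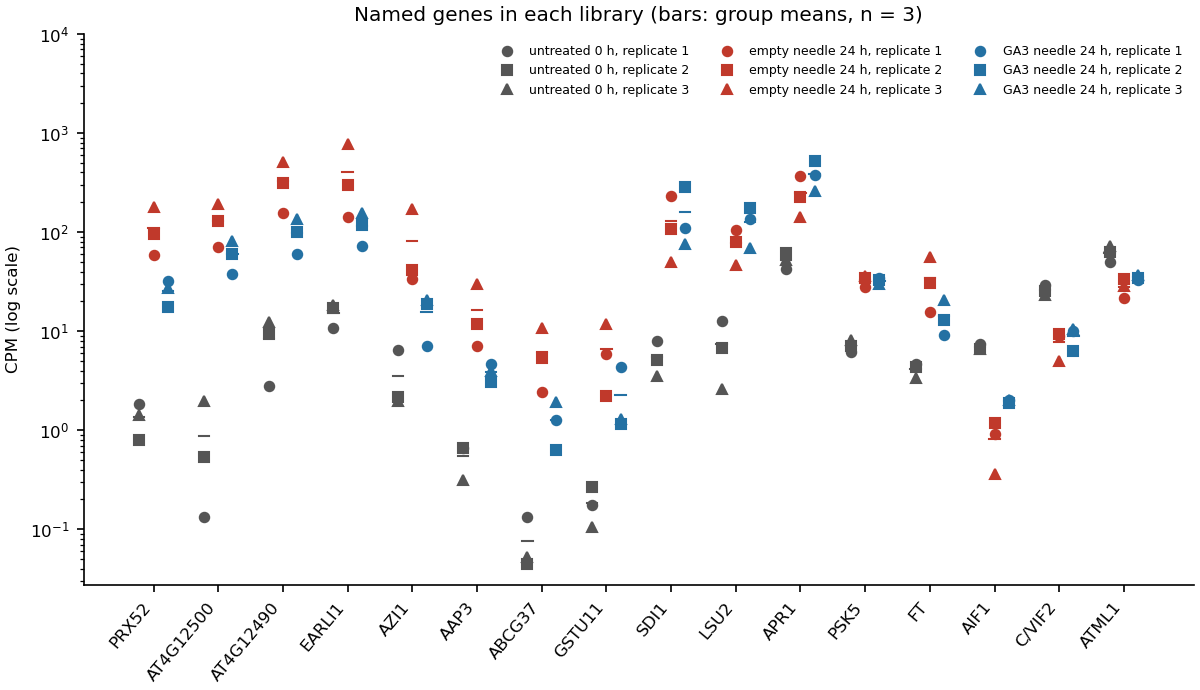
Level of 16 genes in each library as CPM on a log scale, with 1 point per library and short bars for the group means (n = 3), for untreated leaves at 0 h, empty needle leaves at 24 h and GA3 needle leaves at 24 h. In PRX52 the empty needle libraries sit at 58.8 to 179 CPM and the untreated ones at 0.799 to 1.86 CPM, while AIF1, C/VIF2 and ATML1 on the right lie lower with the empty needle than without it.

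The largest rise among the genes of the rule by which genes were named belonged to a row of lipid transfer proteins on chromosome 4. AZI1 is needed for the priming of systemic defence by azelaic acid, and EARLI1 is its close relative. They lie on the minus strand next to AT4G12490 and AT4G12500, which are annotated in the same protein family, from 7401087 to 7414955 of TAIR10.1. To show what AZI1 and EARLI1 share ahead of their starts, the 250 bases before each of their annotated starts are printed on the strand of the gene, read from the RefSeq copy of TAIR10.1, with the W-box core TTGAC, the letters bound by WRKY factors, in capitals. The core was searched on both strands.
AZI1, chr4:7401952-7402201: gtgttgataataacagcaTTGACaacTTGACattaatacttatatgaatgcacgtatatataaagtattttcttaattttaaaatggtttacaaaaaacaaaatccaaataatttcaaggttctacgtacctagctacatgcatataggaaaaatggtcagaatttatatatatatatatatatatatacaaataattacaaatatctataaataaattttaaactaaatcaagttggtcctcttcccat
EARLI1, chr4:7406995-7407244: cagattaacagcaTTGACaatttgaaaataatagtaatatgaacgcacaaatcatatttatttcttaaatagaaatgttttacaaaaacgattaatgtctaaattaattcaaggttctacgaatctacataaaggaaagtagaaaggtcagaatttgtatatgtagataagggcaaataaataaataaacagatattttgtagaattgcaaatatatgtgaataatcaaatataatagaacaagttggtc
The core was in both windows, with 2 sites ahead of AZI1 and 1 ahead of EARLI1. It is a short and common motif, present in 45.2% of the windows of the 19970 tested genes that had one, in 68 of the 122 genes called higher (55.7%) and in 13 of the 34 called lower (38.2%).

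AT4G12500 had 0.133, 0.533 and 1.96 CPM in untreated leaves and 71.3, 129 and 191 CPM with the empty needle. EARLI1 went from 10.8, 17 and 18.3 CPM to 143, 302 and 772 CPM. In both genes empty needle library 3 was the highest and library 1 the lowest, and no empty needle library came near the untreated range. The log2 fold changes were 7.26 ± 0.86 for AT4G12500 (adjusted p = 0.00471) and 4.72 ± 0.70 for EARLI1 (adjusted p = 0.0149). AT4G12490 rose from 2.79, 9.59 and 12.4 CPM to 157, 310 and 514 CPM (5.31 ± 1.06, adjusted p = 0.0476), and AZI1 from 6.51, 2.17 and 1.96 CPM to 33.8, 41.6 and 170 CPM (4.52 ± 0.72, adjusted p = 0.0206). In GA3 needle leaves AT4G12500 stood at 37.4, 59.5 and 81.5 CPM and AZI1 at 7.07, 18.9 and 20.5 CPM. The copies are alike, and reads that mapped to several places were counted apart from the genes. How many reads these levels miss for that reason is unknown.

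The calls of the cluster rested on single libraries to different degrees. Without untreated library 2 none of the 4 genes was called (adjusted p at most 0.14), and without untreated library 3 only AT4G12500 was (log2 fold change 8.59), the others reaching at most 0.184. AT4G12490 also lost its call without untreated library 1 (0.0721) and without empty needle library 1, 2 or 3 (0.0712, 0.0833 and 0.125). The fold change of AZI1 was 5.29 without untreated library 1 and 3.42 without empty needle library 3, and that of EARLI1 was 3.86 without the latter. The list of systemic priming and lipid transfer genes held 12 members, all tested. These 4 were its calls, all higher, beside 0.608% of all genes. In 7 members the groups did not overlap with the empty needle higher, beside 12.8% of all genes. The median log2 fold change was 1.89 (0.95 without empty needle library 2). DESeq2 called 4 members higher and limma-voom 3. Of the 12 members, 10 fitted above 0 and 2 below, the lowest at -2.09. Among those that edgeR did not call, LTP3 and LTP4, lipid transfer proteins of other loci, were at 2.32 and 2.35. DIR1, a lipid transfer protein of long-distance signalling, was at 0.38.

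In the lignin list 7 of the 29 tested members were called higher by edgeR, beside the 0.608% of all genes. DESeq2 called 12 of them higher and limma-voom 5. The libraries did not overlap in 17 members with the empty needle higher, beside 12.8% of all genes. Of the 29 members, 26 fitted above 0, and the median log2 fold change was 0.73. The called members lay at several steps of the pathway. PAL1, which takes the amino group off phenylalanine, had 68, 105 and 91.5 CPM in untreated leaves and 341, 195 and 298 CPM with the empty needle. C4H, the hydroxylase that acts next, had 111, 102 and 105 CPM and then 220, 201 and 315 CPM. All empty needle libraries of both genes were above all untreated ones, by log2 fold changes of 1.66 ± 0.24 and 1.21 ± 0.18 (adjusted p = 0.0144 for each). 4CL2, which links the acid to coenzyme A, rose from 6.02, 5.33 and 5.14 CPM to 16.5, 16.8 and 26.8 CPM (1.86 ± 0.22, adjusted p = 0.00466).

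The enzymes of the last reductions to monolignols, the building blocks of lignin, gave further calls. CCR2, a cinnamoyl-CoA reductase linked to defence, had 2.97, 1.15 and 2.76 CPM in untreated leaves and 14.3, 10.4 and 20.9 CPM with the empty needle. CAD5, a cinnamyl alcohol dehydrogenase, had 39.4, 47.4 and 53.9 CPM and then 130, 168 and 232 CPM. The groups were apart in both, with log2 fold changes of 2.73 ± 0.38 and 1.91 ± 0.28 (adjusted p = 0.0144 for each). MYB15, a regulator of lignin genes in defence, rose from 0.752, 0.71 and 1.8 CPM to 11.9, 4.62 and 11.5 CPM (3.11 ± 0.45, adjusted p = 0.0144). Several other enzymes of the pathway showed smaller values that did not pass: HCT was at 0.08, CCOAOMT1 at 0.87 (adjusted p = 0.065), CCR1, the reductase of developmental lignin, at 0.73 and FAH1 at 0.48. Among the peroxidases PRX71 was at 2.21 (adjusted p = 0.102) and PRX33 at -1.61, and the laccases LAC4 and LAC17 were at 0.45 and 0.01.

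**Figure D2:**
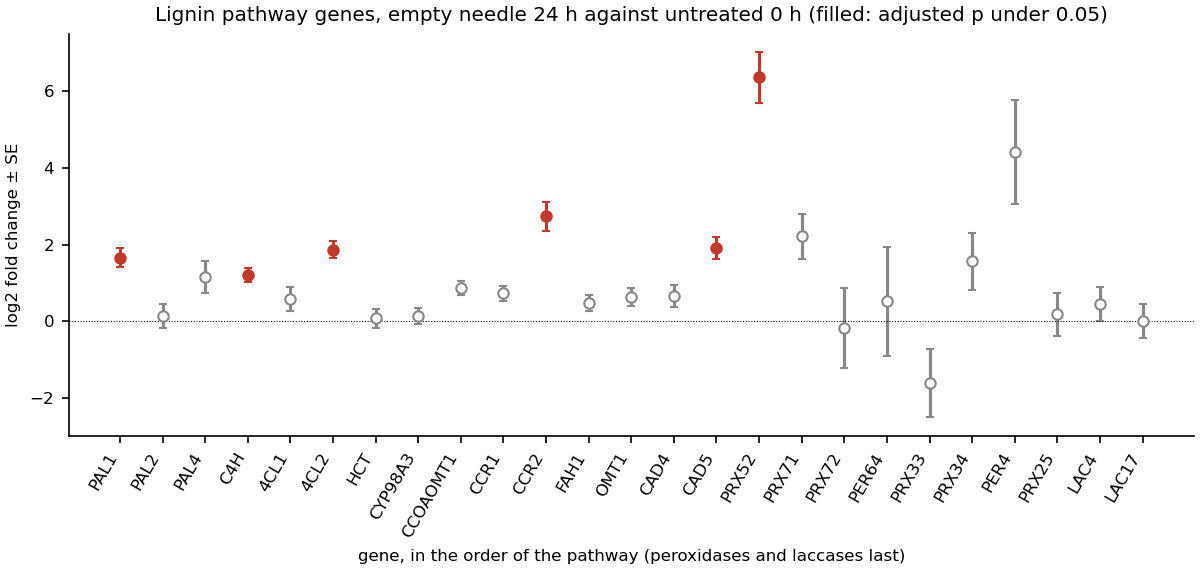
Fitted log2 fold change ± SE (empty needle 24 h against untreated 0 h, n = 3 against 3) of 25 lignin genes in the order of the pathway, enzymes first and peroxidases and laccases last, with filled points for an adjusted p under 0.05. PAL1, C4H, 4CL2, CCR2, CAD5 and PRX52 are filled, and HCT at 0.08 lies close to 0.

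AC elements are the letters through which MYB factors are known to act on phenylpropanoid genes. The motif ACCNACC, searched on both strands, was in the 250 bases before the start of 6 of the 29 tested lignin genes (20.7%) and in 6.43% of all windows. The windows of 4CL2 and CAD5, both on the minus strand, are shown since they were the called members among those 6, with the motif in capitals.
4CL2, chr3:7457405-7457654: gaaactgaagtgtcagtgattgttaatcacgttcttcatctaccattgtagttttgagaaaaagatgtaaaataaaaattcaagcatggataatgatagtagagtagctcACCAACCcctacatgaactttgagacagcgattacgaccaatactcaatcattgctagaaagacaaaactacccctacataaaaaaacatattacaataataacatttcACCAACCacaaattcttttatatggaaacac
CAD5, chr4:16388941-16389190: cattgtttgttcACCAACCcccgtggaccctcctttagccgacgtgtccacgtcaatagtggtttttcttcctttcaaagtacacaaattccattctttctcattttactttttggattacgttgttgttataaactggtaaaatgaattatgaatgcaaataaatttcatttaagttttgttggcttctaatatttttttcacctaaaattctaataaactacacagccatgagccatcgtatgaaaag
4CL2 held 2 sites and CAD5 1, and the windows of PAL1, C4H and CCR2 held none.

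Leaving out an empty needle library kept all 7 lignin calls, as did leaving out untreated library 1. Without untreated library 2 only PRX52 remained, and the other 6 reached adjusted p-values of at most 0.088. Without untreated library 3, PAL1, C4H, CCR2 and CAD5 lost their calls (at most 0.102). In a bulk leaf sample, more transcript per cell and a larger share of the cells that make it cannot be told apart, and this holds for all genes described here.

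Genes of sulfate reduction and markers of low sulfur had the highest median of the lists, 2.09 over 17 tested members. Of these, 16 fitted above 0 and 4 were called higher, beside 0.608% of all genes called. In 15 the groups did not overlap with the empty needle higher, beside 12.8% of all genes. APR1 and APR2 encode the reductases that control the flow of sulfate into cysteine. APR1 had 42.7, 61.8 and 52.7 CPM in untreated leaves and 368, 227 and 142 CPM with the empty needle. APR2 had 204, 225 and 155 CPM and then 657, 784 and 536 CPM. No library of one group reached into the other, and the log2 fold changes were 2.23 ± 0.37 (adjusted p = 0.0259) and 1.76 ± 0.28 (adjusted p = 0.0206). SDI1, a marker of sulfur deficiency that represses glucosinolate synthesis, rose from 7.97, 5.1 and 3.5 CPM to 229, 107 and 49.6 CPM (4.54 ± 0.80, adjusted p = 0.0322). LSU2, another marker of low sulfur, rose from 12.7, 6.83 and 2.6 CPM to 105, 79.2 and 46.3 CPM (3.38 ± 0.63, adjusted p = 0.0438).

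Several members just missed the threshold with groups that did not overlap. LSU1, a relative of LSU2, was at 4.12 (adjusted p = 0.0533), the glutathione-degrading GGCT2;1 at 3.24 (adjusted p = 0.065) and LSU3 at 3.28 (adjusted p = 0.0763). The transporters of the list were lower in value: SULTR1;2, which takes up sulfate in roots, was at 1.87, SULTR4;2, which releases it from the vacuole, at 1.63 and SULTR2;1, of the vascular tissue, at -0.07. SULTR1;1 had no count in any of the 6 libraries. Outside the list, and chosen after their values were seen, SULTR3;4 and SULTR3;1, of the sulfate transporter family, rose by 2.64 ± 0.41 (adjusted p = 0.0183) and 1.37 ± 0.24 (adjusted p = 0.0322). At SULTR3;4, 19.1% of reads in untreated leaves and 4.87% with the empty needle came from the opposite strand. In GA3 needle leaves SDI1 stood at 111, 286 and 76.7 CPM and APR1 at 374, 521 and 259 CPM.

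GAGAC is the core of the sulfur-responsive element SURE described in Arabidopsis. It was found on either strand in 25.4% of all windows and in 4 of the 17 tested sulfur genes (23.5%). Of the called members the window of SDI1, on the minus strand, held it close to the start of the gene, and is shown with the motif in capitals (GTCTC on this strand).
SDI1, chr5:19807854-19808103: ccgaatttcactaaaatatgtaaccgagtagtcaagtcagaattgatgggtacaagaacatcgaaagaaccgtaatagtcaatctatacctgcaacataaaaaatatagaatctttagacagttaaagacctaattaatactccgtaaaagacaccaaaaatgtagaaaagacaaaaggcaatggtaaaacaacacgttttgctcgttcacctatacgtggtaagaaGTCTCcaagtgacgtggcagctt
The windows of LSU2, APR1 and APR2 held no such letters.

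The sulfur calls were sensitive to single libraries. Of SDI1, LSU2, APR1, APR2, SULTR3;4 and SULTR3;1, none was called without untreated library 2 (adjusted p at most 0.13) or untreated library 3 (at most 0.166), and 2 were called without empty needle library 1 (APR2 and SULTR3;4) or 2 (APR1 and SULTR3;4). APR1 lost its call without untreated library 1 (0.0512) and LSU2 without empty needle library 3 (0.0618). LSU2 was at 4.01 without untreated library 1, and SDI1 at 3.82 without empty needle library 1. DESeq2, which called 764 genes higher in all, called 13 of the 17 members of the list higher. Limma-voom, which called 30 in all, called 2 of them.

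The 3 empty needle libraries were not alike in which genes were highest. Library 1 was the highest of the 3 in 13 of the 17 sulfur genes and library 3 the lowest in 15. Over the 122 genes called higher, library 3 was instead the highest in 62, library 1 in 40 and library 2 in 20. The 4 lipid transfer genes, PRX52, AAP3, ABCG37 and FT were all highest in library 3 and lowest in library 1. Over all genes tested the 3 libraries were the highest in 6437, 6899 and 6741 genes.

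**Figure D3:**
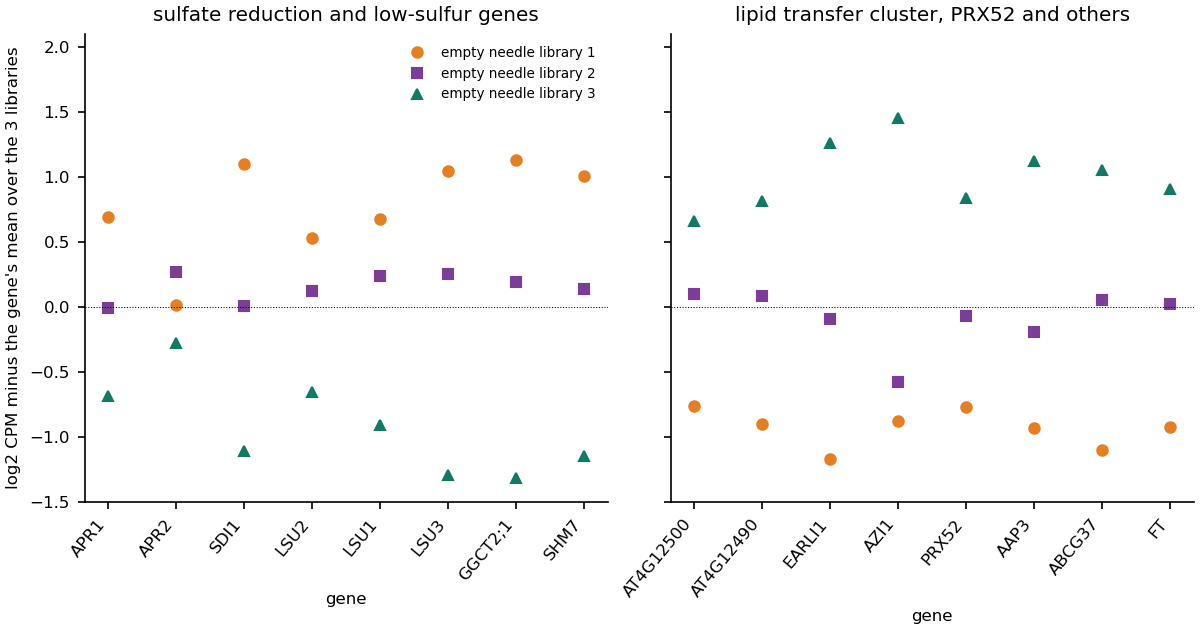
Log2 CPM of 16 genes in each of the 3 empty needle libraries, as the difference from the mean of the gene over those 3 libraries, for sulfur genes (left) and for the lipid transfer genes, PRX52 and others (right), which were chosen after their values were seen. Library 1 lies above library 3 in each gene on the left, and library 3 lies above library 1 in each gene on the right.

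Aliphatic glucosinolate genes make the defence compounds derived from methionine, and all 18 members of the list were tested. In all 18 the libraries did not overlap with the empty needle higher, beside 12.8% of all genes. The median log2 fold change was 1.32, while FMOGS-OX3 was the only call by edgeR (9 by DESeq2, 0 by limma-voom). FMOGS-OX3, which oxidizes the side chain of these compounds, had 11.2, 27 and 25.7 CPM in untreated leaves and 133, 77.7 and 76 CPM with the empty needle. Its log2 fold change was 2.17 ± 0.43 (adjusted p = 0.0468). MYB29, a regulator of the pathway, had 16.1 ± 3.57 CPM (SD, n = 3) in untreated leaves and 53, 38.3 and 30.2 CPM with the empty needle (1.33, adjusted p = 0.0879), and CYP79F1, which catalyses the first committed step, had 50.5, 211 and 173 CPM and then 678, 373 and 402 CPM (1.74, adjusted p = 0.0901). Untreated library 1 was the lowest of its group in all 18 genes and empty needle library 1 the highest of its group in 15. The median was 0.97 without the former and 0.91 without the latter.

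Genes of camalexin, an indole compound that acts against microbes, and of indole glucosinolates formed a further list of 17 tested members. 1 was called higher by edgeR, beside 0.608% of all genes (4 by DESeq2, 0 by limma-voom). In 8 the libraries did not overlap with the empty needle higher, beside 12.8% of all genes, and the median was 0.79. CYP71A12, an enzyme of the route to camalexin, rose from 1.33, 4.48 and 3.55 CPM to 14, 14.5 and 38.1 CPM (log2 fold change 2.83 ± 0.55, adjusted p = 0.0451), and was at 2.19 without empty needle library 3. Its near-identical neighbour CYP71A13 was at 3.23 (adjusted p = 0.191). Reads that mapped to both copies were counted for neither, and how many were lost so is unknown. SUR1, a lyase that both kinds of glucosinolate need, was at 0.79 (adjusted p = 0.115). GTR2, a glucosinolate transporter that is in neither list and was chosen after its values were seen, rose from 62.6, 71.1 and 66.6 CPM to 171, 178 and 174 CPM (1.38 ± 0.28, adjusted p = 0.0497). FMOGS-OX3, CYP71A12 and GTR2 each lost their call without any 1 of the 6 libraries, with adjusted p-values of at most 0.0755, 0.13 and 0.204 without untreated libraries 1, 2 and 3 and of at most 0.13, 0.101 and 0.127 without empty needle libraries 1, 2 and 3.

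None of the 36 jasmonate genes was called, although 32 fitted above 0 and the median was 1.02. The other 4 fitted below 0, and the log2 fold changes of the list ran from -4.91 to 4.66. The libraries did not overlap in 2 members with the empty needle higher and in 1 with it lower, beside 12.8% and 12% of all genes. At an unadjusted p under 0.05 edgeR counted 10 higher and 1 lower, beside 1858 and 1396 of all 20077 genes. DESeq2 called 3 and limma-voom 0. JAZ3, a repressor of jasmonate responses, had 32.6, 30.5 and 34 CPM in untreated leaves and 120, 62.3 and 61.5 CPM with the empty needle (log2 fold change 1.33 ± 0.35, adjusted p = 0.102). LOX3, a lipoxygenase of jasmonate synthesis, had 32.3, 16.6 and 47.8 CPM and then 337, 39.6 and 95 CPM (2.29, adjusted p = 0.178). Empty needle library 1 stood above the others here, being the highest of its group in 31 of the 36 genes. The storage protein VSP2, a classic output of jasmonate in leaves, shows the spread: its level was 26.6, 163 and 283 CPM in untreated leaves and 2296, 91.6 and 55.1 CPM with the empty needle. Untreated library 3 was the highest of its group in 32 genes. The median was 0.15 without empty needle library 1, 1.71 without untreated library 3 and 0.75 without untreated library 1.

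The other lists of defence and wounding held few calls or none. Among 22 genes of wounding, touch and pattern-triggered responses none was called, and the median was 0.68. Of these, 6 did not overlap with the empty needle higher, beside 12.8% of all genes. There edgeR counted 5 higher at an unadjusted p under 0.05, beside 1858 of all 20077 genes. DESeq2 called 1 and limma-voom 0. The danger peptide precursor PROPEP3 had no count in untreated leaves and 0.645, 0.0538 and 1.26 CPM with the empty needle (adjusted p = 0.0887). Of the 20 salicylic acid genes none was called (1 higher at an unadjusted p under 0.05, 1 by DESeq2, 0 by limma-voom) and the median was 0.41. Without untreated library 1 that median was 2.06 and 2 members were called higher, while it was 0.00 without untreated library 2, 0.07 without untreated library 3 and 0.20 without empty needle library 3. PR1, a marker of salicylic acid, had 311, 8.83 and 76.1 CPM in untreated leaves and 193, 259 and 1031 CPM with the empty needle, so that the groups overlapped. Of 10 tested heat shock and endoplasmic reticulum stress genes 8 fitted above 0 with none called (4 higher at an unadjusted p under 0.05, 1 by DESeq2, 0 by limma-voom). Their median was 3.02 with 2 called without untreated library 1, in which the chaperone BIP3 stood at 90.8 CPM against 0.621 and 0.849. Without empty needle library 3 their median was 0.54, and without any 1 of the other 4 libraries it was 0.87 to 1.36.

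Regulators of wound healing and tissue rejoining gave 1 call by edgeR (2 by DESeq2, 0 by limma-voom) among 14 tested members. Their median was 1.11, and 7 did not overlap with the empty needle higher, beside 12.8% of all genes. AT5G61890, annotated as an integrase-type DNA-binding protein, had 0.133, 1.29 and 0.689 CPM in untreated leaves and 12.2, 8.17 and 10.9 CPM with the empty needle. The log2 fold change was 3.88 ± 0.61 (adjusted p = 0.0184), and the call was lost without untreated library 2 (4.70, adjusted p = 0.0512) or 3 (adjusted p = 0.124). ERF115, which drives the replacement of dead cells in roots, had 0, 0.0444 and 0.371 CPM and then 2.74, 0.753 and 1.8 CPM (adjusted p = 0.111). RAP2.6L, a factor of graft and stem healing, had 2.43, 1.82 and 2.12 CPM and then 13, 6.61 and 12.5 CPM (2.33, adjusted p = 0.211). WIND1, which promotes callus at wounds, was at 0.16.

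**Figure D4:**
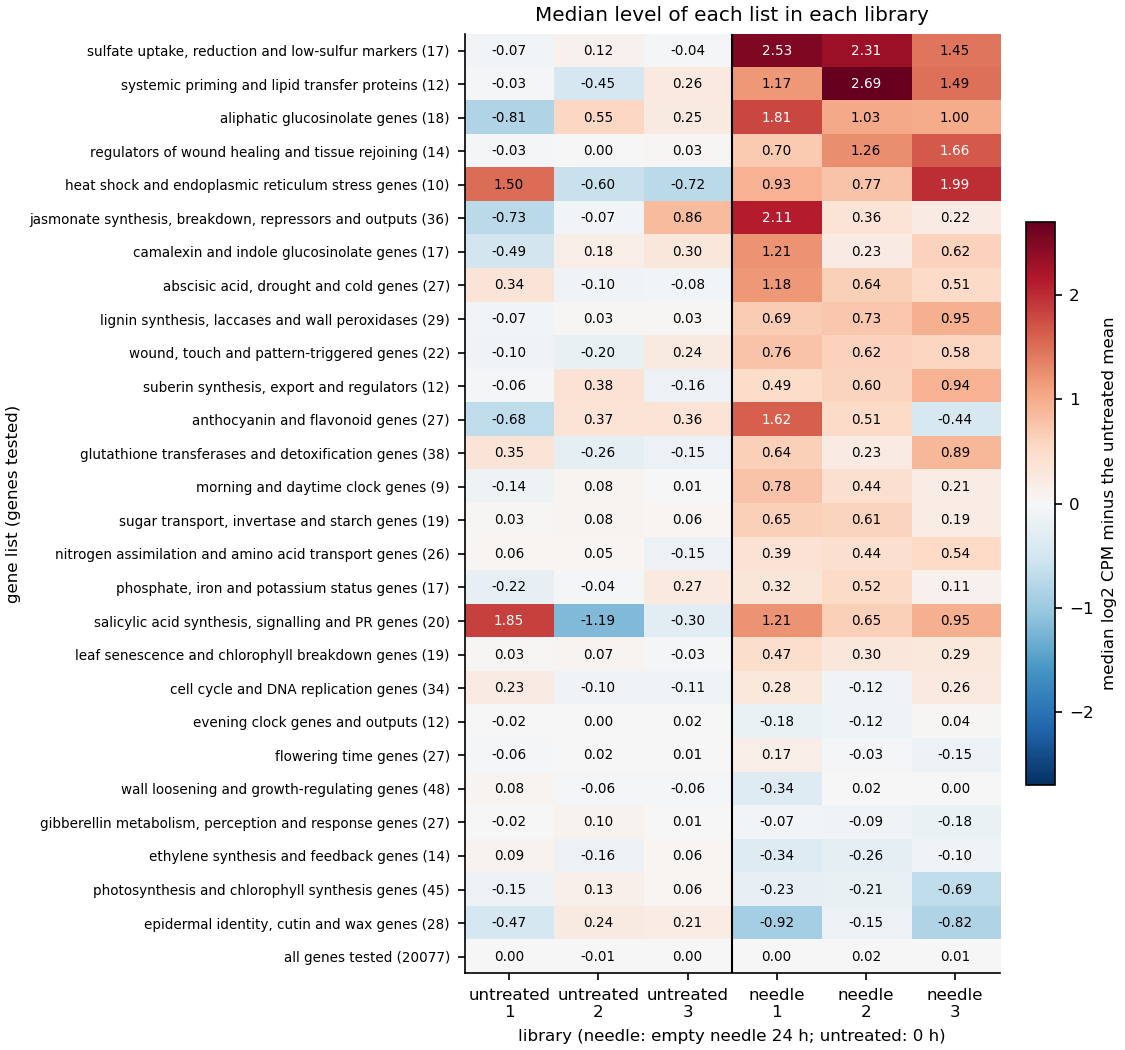
Median log2 CPM of each gene list in each of the 6 libraries, as the difference from the untreated mean of each gene, with the number of tested genes in brackets and lists ordered by their median fitted log2 fold change. Sulfur genes lie at 1.45 to 2.53 in the 3 empty needle libraries, jasmonate genes at 2.11, 0.36 and 0.22, and salicylic acid genes at 1.85 in untreated library 1 against -1.19 and -0.30 in the other two untreated libraries.

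Anthocyanin and flavonoid genes gave 1 call among 27 by edgeR, while DESeq2 called 0 higher and 1 lower and limma-voom 0. PAP1, the MYB factor that switches on anthocyanin synthesis, had 0.0885, 0.0444 and 0 CPM in untreated leaves and 14.4, 1.13 and 1.4 CPM with the empty needle (adjusted p = 0.044). Its untreated level rests on 3 counts over the group, so the ratio of 115 has a 95% counting interval of 39 to 560. The call was lost without untreated library 1 (0.0642), 2 (0.134) or 3 (0.187), and the fitted fold of 107 was 188 without untreated library 1 and 24.3 without empty needle library 1. DESeq2 gave it no adjusted p. The enzymes of the list did not follow it in all libraries: DFR, which makes the first step specific to anthocyanins, had 8.36, 34.6 and 65.4 CPM and then 202, 21.1 and 2.61 CPM. Empty needle library 1 was the highest of its group in 20 of the 27 genes and library 3 the lowest in 20. The median was 0.65 with all libraries and -0.19 without empty needle library 1. The groups did not overlap in 1 member with the empty needle higher and in 2 with it lower, beside 12.8% and 12% of all genes. Of the 2 lower ones, the regulator TTG1 was at -0.62 (adjusted p = 0.0763).

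Transport of nitrogen compounds and detoxification gave calls in both lists. AAP3, an amino acid permease of the vascular tissue, had 0.664, 0.666 and 0.318 CPM in untreated leaves and 7.15, 11.9 and 29.7 CPM with the empty needle. The log2 fold change was 4.86 ± 0.57 (adjusted p = 0.00466) and 4.09 without empty needle library 3. AAP5, a permease for basic amino acids, rose from 29.6, 31.5 and 21.2 CPM to 58.5, 64.7 and 68.1 CPM (1.22 ± 0.24, adjusted p = 0.0476). These were the 2 calls by edgeR (4 by DESeq2, 0 by limma-voom) among 26 tested nitrogen genes, of which 11 did not overlap with the empty needle higher and 3 with it lower, with a median of 0.45. ABCG37, an exporter of auxin precursors and of phenolic compounds in roots, rose from 0.133, 0.0444 and 0.053 CPM to 2.42, 5.38 and 10.8 CPM (6.22 ± 0.92, adjusted p = 0.0149). At that locus 90.6% of reads in untreated leaves and 7.51% with the empty needle came from the opposite strand, and with counts that ignored strand it was not called (3.04, adjusted p = 0.0599). At AAP3 those shares were 17.7% and 1.22%, and it was called with strand ignored (adjusted p = 0.00443). GSTU11, a glutathione transferase, rose from 0.177, 0.266 and 0.106 CPM to 5.92, 2.2 and 11.7 CPM (5.11 ± 0.83, adjusted p = 0.0214). ABCG37 and GSTU11 were the 2 calls by edgeR (7 by DESeq2, 0 by limma-voom) among 38 detoxification genes. Of these, 13 did not overlap with the empty needle higher and 1 with it lower, with a median of 0.59. Beside the counts of both lists stand 0.608% of all genes called higher, 12.8% not overlapping with the empty needle higher and 12% with it lower.

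AAP5 lost its call without untreated library 1 (0.0616), without empty needle library 1 (0.104) or 2 (0.0982), and with GSTU11 without empty needle library 3 (at most 0.137). Without untreated library 2 all 4 were lost (at most 0.112) and without untreated library 3 all but AAP3 (at most 0.207). ABCG37 was at 6.84 without untreated library 1 and 5.55 without empty needle library 3, and GSTU11 at 4.41 without the latter.

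Of the 122 genes called higher, 25 were members of a list and 57 had no symbol. Of those in no list and not described above, 1 gene was named by the rule and 9 more were chosen after their values were seen, to show what kinds of protein they encode. AT5G44380 and AT1G30700, annotated as FAD-binding berberine enzymes, rose by 5.02 ± 0.93 (adjusted p = 0.0403) and 4.32 ± 0.71 (adjusted p = 0.0238). EXT4, an extensin that crosslinks in the wall, had 25.3, 95 and 111 CPM in untreated leaves and 328, 919 and 806 CPM with the empty needle (3.15 ± 0.62, adjusted p = 0.0468). PA2, a peroxidase, rose by 3.18 ± 0.49 (adjusted p = 0.0166). TI1, a trypsin inhibitor, had 5.13, 19.6 and 23.9 CPM and then 131, 125 and 274 CPM (3.45 ± 0.63, adjusted p = 0.0384), and AT2G38870, annotated as a serine protease inhibitor, had 22.9, 19 and 21.7 CPM and then 71.6, 122 and 121 CPM (2.31 ± 0.27, adjusted p = 0.00466). MLO12, a membrane protein of powdery mildew susceptibility, the factor WRKY8 and AT2G43620, annotated as a chitinase, rose by 3.06 ± 0.42 (adjusted p = 0.0135), 2.38 ± 0.41 (adjusted p = 0.029) and 3.65 ± 0.69 (adjusted p = 0.044). PTR3, a peptide transporter induced by wounding, rose by 3.11 ± 0.45 (adjusted p = 0.0144).

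In all 10 genes the groups did not overlap. None was called without untreated library 2 (adjusted p at most 0.135), and without untreated library 3 only AT2G38870 was (the others at most 0.195). Without untreated library 1, AT5G44380 and EXT4 lost their calls (at most 0.0528), without empty needle library 1 TI1 and AT2G43620 (at most 0.0664), and without library 2 AT5G44380, EXT4 and TI1 (at most 0.0982). Without empty needle library 3 AT5G44380, AT1G30700, EXT4, TI1, WRKY8 and AT2G43620 were lost (at most 0.122). The log2 fold changes without that library were 4.07 for AT5G44380, 3.64 for AT1G30700, 2.51 for PA2 and 2.81 for AT2G43620, and PTR3 was at 3.78 without untreated library 1.

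FT encodes the mobile signal that carries the decision to flower from leaf to shoot tip, and GI, a gene of the evening clock, acts ahead of it in long days. With the values given above, FT reads rose by 3.05 ± 0.43 on the log2 scale (adjusted p = 0.0144), each empty needle library being above each untreated one. GI had 6.59, 6.08 and 5.04 CPM in untreated leaves and 20.4, 27.3 and 19.3 CPM with the empty needle (1.92 ± 0.39, adjusted p = 0.0497). FT was not called without untreated library 2 (adjusted p at most 0.138 for both genes) or 3 (at most 0.213). GI was not called with counts that ignored strand (1.91, adjusted p = 0.0503) or without any 1 of the 6 libraries, with 0.0647 without untreated library 1 and 0.111, 0.113 and 0.112 without empty needle libraries 1, 2 and 3. In GA3 needle leaves FT stood at 9.16, 12.9 and 20.5 CPM and GI at 55.3, 37.8 and 13.8 CPM.

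FT was the only call by edgeR among 27 tested flowering genes (DESeq2 called 1 higher and 1 lower, limma-voom 0), whose median was -0.09, with 3 that did not overlap in each direction. Over all genes, the groups did not overlap in 12.8% with the empty needle higher and in 12% with it lower. CO, the activator of FT in long days, had 1.37, 0.533 and 0.53 CPM and then 0.0538, 0.215 and 0.09 CPM (-2.72, adjusted p = 0.12), and most reads at that locus in empty needle leaves, 70.2%, came from the opposite strand. GI was the only call by edgeR among 12 evening clock genes (1 by DESeq2, 0 by limma-voom, median -0.07, 1 that did not overlap in each direction). Of the 9 morning and daytime clock genes none was called (3 higher at an unadjusted p under 0.05, 1 by DESeq2, 0 by limma-voom), 5 did not overlap with the empty needle higher, and the median was 0.51. LNK1, a coactivator of the morning phase, was at 0.90 (adjusted p = 0.0972) and LHY, a morning repressor, at 0.56 (adjusted p = 0.265). The labels give the hours since injection, and no clock time of a harvest was found in them.

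None of the 27 tested genes of gibberellin metabolism, perception and response was called by edgeR, and their median was -0.11. At an unadjusted p under 0.05, edgeR counted 2 higher and 3 lower, beside 1858 and 1396 of all 20077 genes. DESeq2 called 1 in each direction and limma-voom 0. XERICO, a gene of abscisic acid accumulation that gibberellin signalling represses, had 14.4, 13.6 and 16 CPM in untreated leaves and 10.2, 6.88 and 5.58 CPM with the empty needle (-0.96, adjusted p = 0.0606). GID1B, a gibberellin receptor, had 16.5, 8.39 and 11.1 CPM and then 6.08, 4.19 and 5.31 CPM (-1.21, adjusted p = 0.188). In the list 5 members did not overlap with the empty needle lower and 1 with it higher, beside 12% and 12.8% of all genes. Without empty needle library 1 there was 1 lower call.

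The called falls were fewer than the rises, with a median log2 fold change of -1.08 over the 34 genes against 2.18 over the 122. AIF1, a small helix-loop-helix protein that restrains growth, had 7.35, 6.57 and 6.63 CPM in untreated leaves and 0.914, 1.18 and 0.36 CPM with the empty needle. Its log2 fold change was -3.07 ± 0.41 (adjusted p = 0.0135). BRH1, a RING finger gene that responds to brassinosteroid, had 79.6, 61.2 and 91.9 CPM and then 30, 32 and 34.4 CPM (-1.27 ± 0.24, adjusted p = 0.044). They were the 2 lower calls by edgeR among 48 growth genes (DESeq2 called 1 higher and 3 lower, limma-voom 0), of which 8 did not overlap with the empty needle lower and 4 with it higher, with a median of -0.10. Over all genes, 12% did not overlap with the empty needle lower and 12.8% with it higher. E2FB, a factor that promotes the cell cycle, had 10.5, 9.81 and 8.75 CPM and then 4.57, 3.93 and 4.5 CPM (-1.16 ± 0.22, adjusted p = 0.044). It was the only call by edgeR (2 lower by DESeq2, 0 by limma-voom) among 34 genes of the cell cycle and DNA replication, whose median was 0.04.

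Epidermal genes had the lowest median of the lists. Of 28 tested genes of epidermal identity, cutin and wax, 22 fitted below 0 and 1 was called lower by edgeR. The median was -0.74. In 7 the groups did not overlap with the empty needle lower and in 3 with it higher, beside 12% and 12.8% of all genes. DESeq2 called 1 higher and 8 lower, and limma-voom 1 lower. ATML1, a homeodomain factor that sets epidermal identity, had 49.7, 62.4 and 73 CPM in untreated leaves and 21.8, 33.4 and 28.9 CPM with the empty needle. All its empty needle libraries lay under all untreated ones (log2 fold change -1.13 ± 0.18, adjusted p = 0.0184). Its partner PDF2 had 47.7, 61.7 and 60.6 CPM and then 31.1, 38.3 and 32.1 CPM (-0.74, adjusted p = 0.119). HDG1, a relative that is in no list and was chosen after its values were seen, fell by 1.03 on the log2 scale (adjusted p = 0.0252). The wax exporter CER5 was at -1.06 (adjusted p = 0.0672) and CER2, which extends wax chains, at -1.21 (adjusted p = 0.0742). Without untreated library 1, in which 22 of the 28 genes were the lowest of the group, 5 members were called lower.

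AIF1, BRH1, E2FB, ATML1 and HDG1 were not called without untreated library 2 (adjusted p at most 0.115) or 3 (at most 0.187). BRH1 and E2FB also lost their calls without untreated library 1 (at most 0.0568) and without any 1 empty needle library, HDG1 without empty needle library 1 or 3 and ATML1 without library 3, with adjusted p-values of at most 0.13, 0.105 and 0.122 without libraries 1, 2 and 3.

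The other large falls were spread over functions. AT1G22250, an uncharacterized protein, had 1.28, 6.61 and 8.54 CPM in untreated leaves and 0.215, 0.753 and 0.495 CPM with the empty needle (log2 fold change -3.47 ± 0.68, adjusted p = 0.0453), with 23.8% of the reads there from the opposite strand. It had no value with counts that ignored strand. AT1G78170, annotated as a ubiquitin ligase, had 5.8, 19.2 and 13.6 CPM and then 1.18, 1.24 and 1.35 CPM (-3.35 ± 0.58, adjusted p = 0.0288). AT1G64380, annotated as an integrase-type DNA-binding protein, had 6.33, 6.57 and 4.19 CPM and then 0.968, 1.08 and 1.31 CPM (-2.34 ± 0.35, adjusted p = 0.0149). C/VIF2, an inhibitor of the invertases that split sucrose, had 29.1, 25.3 and 23.2 CPM and then 8.87, 9.3 and 5 CPM (-1.75 ± 0.27, adjusted p = 0.0166). It was the only call by edgeR among 19 genes of sugar transport, invertase and starch. DESeq2 called 4 higher and 1 lower there, and limma-voom 1 lower. The median of the list was 0.50. In 6 the groups did not overlap with the empty needle higher and in 1 with it lower, beside 12.8% and 12% of all genes.

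KUF1, an F-box gene that responds to karrikins, was at -1.64 ± 0.26 (adjusted p = 0.0214) and OFP13, an ovate family repressor, at -1.60 ± 0.31 (adjusted p = 0.044), with 11.3% opposite-strand reads. CNGC10, an ion channel gated by cyclic nucleotides, was at -1.37 ± 0.28 (adjusted p = 0.0497). SFH3, a lipid transfer protein of the SEC14 kind, was at -1.32 ± 0.25 (adjusted p = 0.044). However, 64.1% of the reads at its locus in empty needle leaves came from the opposite strand, which makes its value uncertain. With counts that ignored strand SFH3 was at -1.31 (adjusted p = 0.0484). All 8 of these genes lost their calls without untreated library 2 (adjusted p at most 0.118), and all but AT1G64380 without untreated library 3 (at most 0.184). OFP13, CNGC10 and SFH3 lost them without untreated library 1 (at most 0.0719). Only C/VIF2 kept its call without empty needle library 1 (the others at most 0.16), and only it and AT1G64380 without library 2 (at most 0.0911) or library 3 (at most 0.156).

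Photosynthesis genes mostly fitted below 0 without a single call. Of 45 genes, 40 did so and 19 did not overlap with the empty needle lower, beside 12% of all genes. The median was -0.38. Their summed levels overlapped, at 113476, 144352 and 135650 CPM in untreated leaves and 111005, 113715 and 85889 CPM with the empty needle. At an unadjusted p under 0.05 edgeR counted 2 lower, and DESeq2 and limma-voom called 0. LHCA2, an antenna protein of photosystem I, had 2990, 3489 and 3506 CPM in untreated leaves and 2468, 2578 and 2062 CPM with the empty needle (-0.49, adjusted p = 0.285). PETC, the Rieske protein of electron transport, was at -0.45 (adjusted p = 0.296). Empty needle library 3 was the lowest of its group in all 45 genes, and the median without it was -0.23.

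The remaining lists held no call by edgeR or limma-voom in either direction. At an unadjusted p under 0.05 edgeR counted 8 higher among the abscisic acid genes, 1 higher and 1 lower in suberin, 3 higher in senescence, 3 higher in phosphate, iron and potassium, and 1 higher and 2 lower in ethylene. Over all 20077 genes it counted 1858 higher and 1396 lower. DESeq2 called 4 higher among the abscisic acid genes, 1 higher and 1 lower in suberin, 2 higher in senescence, 1 higher in ethylene and none in phosphate, iron and potassium. Abscisic acid, drought and cold genes had a median of 0.79 over 27 tested members. Of these, 10 did not overlap with the empty needle higher, beside 12.8% of all genes. CYP707A1, which breaks down abscisic acid, was at 2.66 (adjusted p = 0.096). Suberin genes had a median of 0.66 over 12 (0.16 without untreated library 3), with FAR5, which makes the fatty alcohols of suberin, at 3.00 (adjusted p = 0.0932) and the elongase KCS2 at -2.08 (adjusted p = 0.0802). Senescence genes had a median of 0.28 over 19, and 8 did not overlap with the empty needle higher, beside the same 12.8% of all genes. JUB1, a factor that delays senescence, was at 2.19 (adjusted p = 0.0943). Phosphate, iron and potassium genes had a median of 0.42 over 17. Ethylene genes had a median of -0.37 over 14, and ACS2, which makes the ethylene precursor, had 0.354, 0.0444 and 0.265 CPM in untreated leaves and 4.36, 1.4 and 7.74 CPM with the empty needle (4.32 ± 0.96, adjusted p = 0.065).

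**Figure D5:**
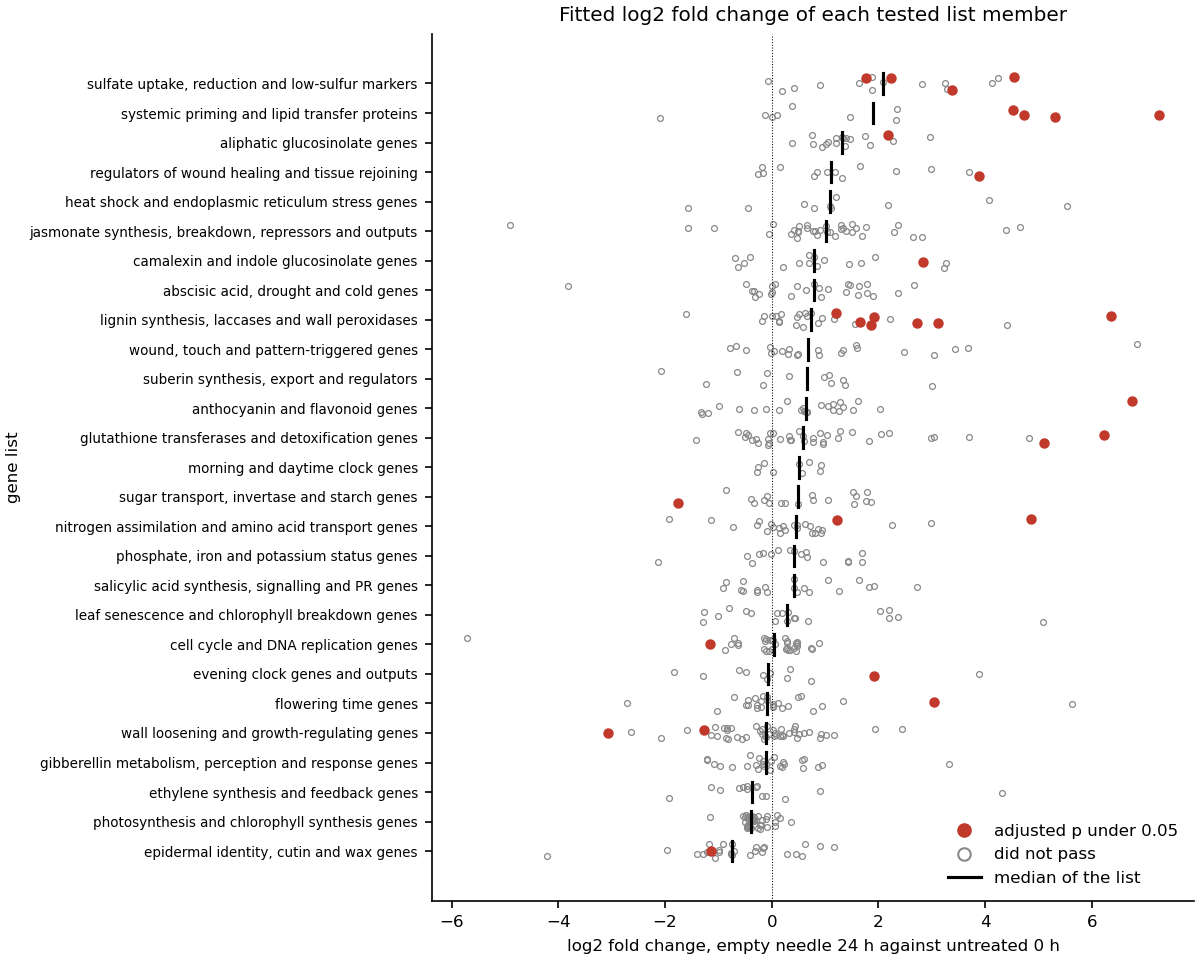
Fitted log2 fold change (empty needle 24 h against untreated 0 h) of each tested member of the 27 gene lists, with filled points for an adjusted p under 0.05, open points for the rest and a black line at the median of each list. The median runs from 2.09 in sulfur genes to -0.74 in epidermal genes, and filled points are most numerous in the lignin list.

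Markers of other organs and cell types were checked against the label of rosette leaf. Of 11 root markers 8 had no count in any of the 6 libraries, and the summed level of the list ranged from 4.26 to 12.9 CPM in untreated leaves and from 1.31 to 11.6 CPM with the empty needle. Of 6 seed markers 4 had no count, as had the meristem genes WUS and CLV3, and the 5 floral organ markers summed to at most 1.40 CPM. The phloem and xylem markers summed to 769 to 888 CPM and 862 to 1219 CPM, with a median of 0.40 over 11 and no call (1 higher at an unadjusted p under 0.05, 0 by DESeq2 or limma-voom). None of the 3 guard cell and 2 trichome markers tested was called by edgeR (1 guard cell marker higher and 1 lower and 1 trichome marker lower at an unadjusted p under 0.05), DESeq2 called 1 guard cell marker lower, and limma-voom called 0. FAMA, which specifies guard cells, was at -0.85 (adjusted p = 0.0879), and GL2, a trichome regulator, at -2.65 (adjusted p = 0.183) from a level of about 1 CPM or less. The part of such cell types in the results above was not tested.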

How the data were processed

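The authors deposited raw counts of reads for each gene. The submitters' processing notes name STAR 2.7.7a and TAIR10, and the annotation used for counting is not given in these sources. Counts of the sense strand were used, taken as the strand with most reads, while 4.97% to 5.51% of reads lay on the opposite strand. Of 34218 genes, 32548 had a RefSeq entry on TAIR10.1, which gave symbols, coordinates and sequence. No library was a copy of another, with chi-square per degree of freedom of 20.1 or more within groups.

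All 14 libraries were fitted in R 4.3.3 with edgeR 4.0.16 (TMM factors from 0.893 to 1.13, filterByExpr, 1 coefficient per group, quasi-likelihood F test), and p-values were adjusted by the Benjamini-Hochberg method over 20077 genes and called under 0.05. The SE of a log2 fold change was its absolute value over the square root of its F. Intervals cover counting error only, and PCR copies were not marked. The labels do not say which plants shared a tray or a day, so p-values measure the spread between these libraries.

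The comparison, the 27 gene lists and the 7 marker lists were chosen with earlier results of these data known, so no list is independent support for its direction. Genes were named by a rule: FT, the 12 largest rises and 10 largest falls among called genes whose groups did not overlap and whose higher group averaged 5 CPM or more, every called list member, the 2 members of each list with the smallest p, and the AZI1 cluster. Some genes of the rule are not described above. Other list members that the rule did not name are described beside them, and these were picked with their values known. Alternatives were DESeq2 1.42.0, limma-voom (limma 3.58.1), RLE factors, total counts, TMM without organelle genes, 2 other filters on low counts, the 6 libraries alone, a replicate block, counts ignoring strand, and each of the 6 libraries left out. Some sequences are not reported here.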

Additional observations from a re-analysis of the deposited data

How the results depend on the processing

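With 122 genes called higher and 34 lower in the fit of all libraries, DESeq2 called 764 and 348 and limma-voom 30 and 6. Leaving out 1 of the 6 libraries gave 4 to 179 higher and 0 to 54 lower calls. Total counts as library size gave 100 and 11. The higher count stayed within 1.5 times under RLE factors, TMM without organelle genes, both other filters, the 6 libraries alone and counts ignoring strand (106 to 138), as did the lower count (26 to 40). The labels do not say whether equal replicate numbers pair the samples. The deviations of untreated and empty needle libraries with the same number correlated at -0.128, 0.165 and -0.256. Untreated library 1 correlated best with empty needle library 3 (0.331). With 3 libraries per group such values cannot decide whether samples were paired. The replicate block gave 122 and 23 calls with all libraries, and 0 and 0 with the 6 libraries alone, where edgeR counted 1614 higher and 967 lower genes at an unadjusted p under 0.05. No gene named by the rule, described above or not, changed its direction under an alternative that gave it a value. Of these 72 named genes, 2 had none with the filter of 1 CPM in 3 libraries, 1 with DESeq2, 3 with counts ignoring strand and 2 with the 6 libraries alone. DESeq2 added a call for 22 named genes and limma-voom ended one for 25. The median of the floral organ markers, of which 1 was tested, could not be had with the filter of 1 CPM in 3 libraries or with the 6 libraries alone. Levels under 1 CPM rest on few counts, so their ratios are less certain than those of deeper genes.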
